A study of Homo sapiens with 8 samples.

Results

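Proteins of the IFIT family are induced by interferon and built of tetratricopeptide repeats. The levels of 4 of their genes, IFIT1, IFIT2, IFIT3 and IFIT5, were followed across 8 RNA-seq libraries of A549, a widely used line of human lung adenocarcinoma cells. All 4 members were found by symbol among the 17056 genes of the deposited table, and all 4 passed the filter on low values. The family was picked on measured values: IFIT1, IFIT2 and IFIT3 had stood out in these libraries with overexpression against the vector control and with knockdown against the knockdown control, and IFIT5 came in as their relative. Each of the 4 comparisons below uses libraries that entered that choice. The members' values are therefore given as descriptions, without p-values.

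The libraries form 4 groups of 2: cells overexpressing AFAP1-AS1, a long non-coding RNA (labelled OE), cells with its knockdown (labelled ASO, which commonly stands for antisense oligonucleotide), the negative control of the knockdown (ASONC) and a vector control. The labels give no dose, time, construct or oligonucleotide and name no separate cultures. The p-values therefore reflect variation among these libraries, and that variation may be technical. AFAP1-AS1 itself was not analysed here, so its gain and loss could not be checked by its own level. Between 33662221 and 37508996 reads per library were recovered from the values, and the replicates of a group had correlations over genes of 0.9973 to 0.9977. In genes detected, the libraries of the knockdown control differed from the rest: genes at 0 numbered 2318 and 2205 with overexpression, 2270 and 2264 with knockdown, 1435 and 1341 in the knockdown control and 2323 and 2327 in the vector control. The keratin genes KRT8 and KRT18, markers of epithelial cells, averaged 1222 and 1138 FPKM over the 8 libraries, while EPCAM and CDH1, also epithelial, averaged 0.597 and 2.64. Of 4 leukocyte markers 3 were listed, with PTPRC between 0 and 0.00429 FPKM and CD14 between 1.57 and 2.70. The sum of the 5 epithelial markers was 2200 to 2225 FPKM with overexpression, 2481 to 2572 with knockdown, 2621 to 2626 in the knockdown control and 2081 to 2125 in the vector control. The sum of 3 endothelial markers was 0.971 to 1.16, 0.172 to 0.228, 0.0899 to 0.296 and 1.32 to 1.69 FPKM in those groups, and the part of these differences in the results was not tested. FPKM, the unit throughout, is the number of fragments per kilobase of gene, scaled to the size of the library.

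IFIT genes are silent or low in resting cells and are switched on by interferons and by viral RNA. Type I and type III interferons act through the kinases JAK1 and TYK2 on the complex ISGF3, which includes STAT2 and IRF9 and binds the interferon-stimulated response element (ISRE) in promoters. IRF3, activated downstream of the RNA sensors RIG-I and MDA5, can switch on the same element without interferon. The proteins bind RNA: IFIT1 holds RNA whose cap lacks ribose methylation and keeps it from being translated, IFIT3 stabilises IFIT1, IFIT2 binds AU-rich RNA and can promote apoptosis, and IFIT5 binds RNA ends that carry phosphates but no cap.

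The genes lie within 119.0 kb of chromosome 10 (89302046 to 89420997, GRCh38.p14, RefSeq), all on the plus strand, in the order IFIT2, IFIT3, IFIT1B, IFIT1 and IFIT5. The promoter windows below, 250 bases before to 50 bases after the transcription start, come from RefSeq (GRCh38.p14; the submitters name hg38 and GRCh38). They are shown for their matches to the ISRE, with IFIT1B beside them as the family gene of the cluster with almost no reads. Whether the matches bear on the changes below was not tested. Windows were found for 3 of the 4 members, IFIT1 (chr10:89392373-89392672), IFIT3 (chr10:89327747-89328046, and a second start at chr10:89332279-89332578) and IFIT5 (chr10:89414318-89414617), and for IFIT1B (chr10:89377806-89378105). Capitals mark each match to the ISRE letters GAAANNGAAA, searched on both strands, so that TTTCNNTTTC is the same motif read from the other strand. All matches read as GAAA on the minus strand, and none overlaps another.
IFIT1: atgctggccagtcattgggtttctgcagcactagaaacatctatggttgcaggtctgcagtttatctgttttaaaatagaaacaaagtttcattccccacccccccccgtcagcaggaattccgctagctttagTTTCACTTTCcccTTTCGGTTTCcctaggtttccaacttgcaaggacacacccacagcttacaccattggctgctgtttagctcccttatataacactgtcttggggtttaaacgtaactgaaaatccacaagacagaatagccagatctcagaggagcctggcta
IFIT3 first start: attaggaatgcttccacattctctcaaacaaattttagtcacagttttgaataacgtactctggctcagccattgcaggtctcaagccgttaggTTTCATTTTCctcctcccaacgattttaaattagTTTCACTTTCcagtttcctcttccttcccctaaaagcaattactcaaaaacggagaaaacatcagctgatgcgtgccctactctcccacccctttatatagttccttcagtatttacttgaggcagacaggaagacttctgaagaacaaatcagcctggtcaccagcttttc
IFIT5: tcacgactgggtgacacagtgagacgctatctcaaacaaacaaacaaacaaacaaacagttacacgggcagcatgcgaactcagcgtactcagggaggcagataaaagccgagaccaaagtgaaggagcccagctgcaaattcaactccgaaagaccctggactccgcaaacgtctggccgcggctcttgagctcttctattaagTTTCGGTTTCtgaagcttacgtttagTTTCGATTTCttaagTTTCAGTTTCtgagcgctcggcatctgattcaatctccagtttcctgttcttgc
IFIT1B: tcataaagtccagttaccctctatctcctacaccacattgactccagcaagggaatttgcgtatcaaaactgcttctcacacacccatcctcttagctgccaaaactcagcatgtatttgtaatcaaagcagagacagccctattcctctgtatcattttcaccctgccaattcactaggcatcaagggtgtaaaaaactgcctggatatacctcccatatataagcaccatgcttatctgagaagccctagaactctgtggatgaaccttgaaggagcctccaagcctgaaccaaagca

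IFIT1 held 2 matches, TTTCACTTTC from -116 to -107 and TTTCGGTTTC from -103 to -94, counted from the start at +1. IFIT3 held 2 at its first start, TTTCATTTTC from -156 to -147 and TTTCACTTTC from -122 to -113, and 2 at its second, TTTCAGTTTC from -94 to -85 and TTTCACTTTC from -51 to -42. IFIT5 held 3, TTTCGGTTTC from -45 to -36, TTTCGATTTC from -19 to -10 and TTTCAGTTTC from -4 to 6, the last across the start itself. IFIT1B held 0. Of 35116 windows of this length, 1255 (3.57%) held the motif, 91 (0.259%) held 2 or more and 13 (0.037%) held 3 or more. The letters TTCNNNGAA of the gamma-activated site, the same on both strands, were found in 7.66% of windows and in 0 of these 5. A match describes letters in a window and not a bound site.

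**Figure D1:**
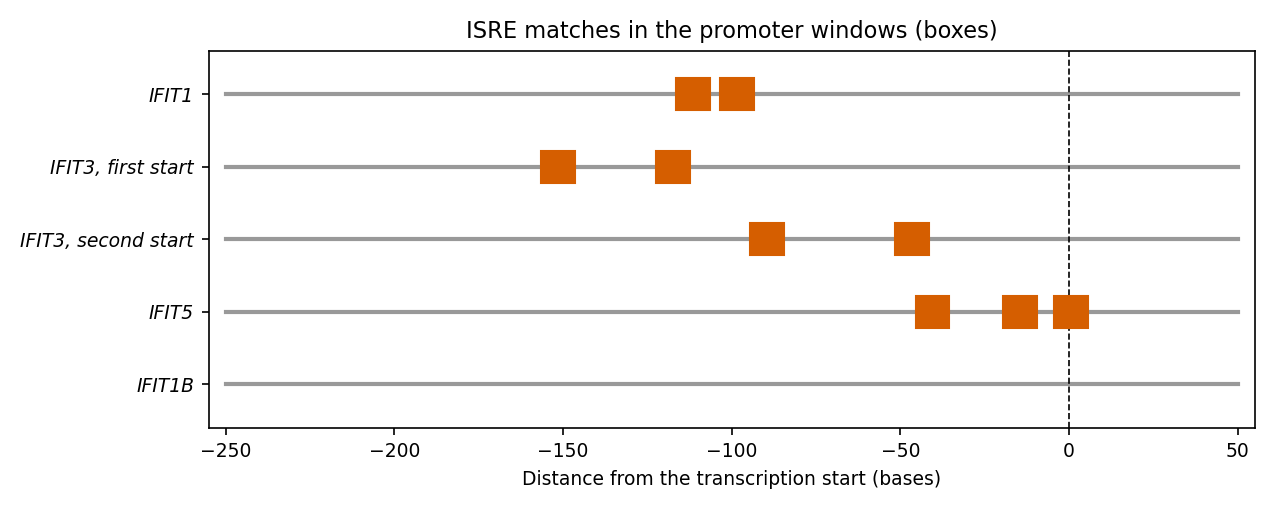
Position of each ISRE match (boxes) in the promoter windows of IFIT1, IFIT3 (2 starts), IFIT5 and IFIT1B, with distance from the transcription start in bases on the x axis and the start as a dashed line. The 3 matches of IFIT5 lie nearest the start, and IFIT1B has none.

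IFIT1, which encodes the sensor of caps without ribose methylation, had 19.38 and 21.20 FPKM with overexpression, 2.73 and 2.36 with knockdown, 20.28 and 21.21 in the knockdown control and 12.71 and 13.56 in the vector control. The knockdown libraries were the lowest and the vector libraries the next, and overexpression and knockdown control overlapped. IFIT2 had 18.66 and 19.50 FPKM with overexpression, 3.11 and 3.45 with knockdown, 22.40 and 20.95 in the knockdown control and 11.71 and 10.92 in the vector control. Here all 4 groups were apart, with the knockdown control highest. IFIT3, the partner of IFIT1, had 25.05 and 25.26 FPKM with overexpression, 3.2 and 2.9 with knockdown, 20.04 and 19.22 in the knockdown control and 15.58 and 14.91 in the vector control. Its 4 groups were also apart, but overexpression was highest. IFIT5 had 12.89 and 12.98 FPKM with overexpression, 6.99 and 6.96 with knockdown, 9.53 and 10.49 in the knockdown control and 11.27 and 11.30 in the vector control. IFIT5 thus kept the knockdown libraries lowest and overexpression highest, with the knockdown control below the vector control instead of above it.

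**Figure D2:**
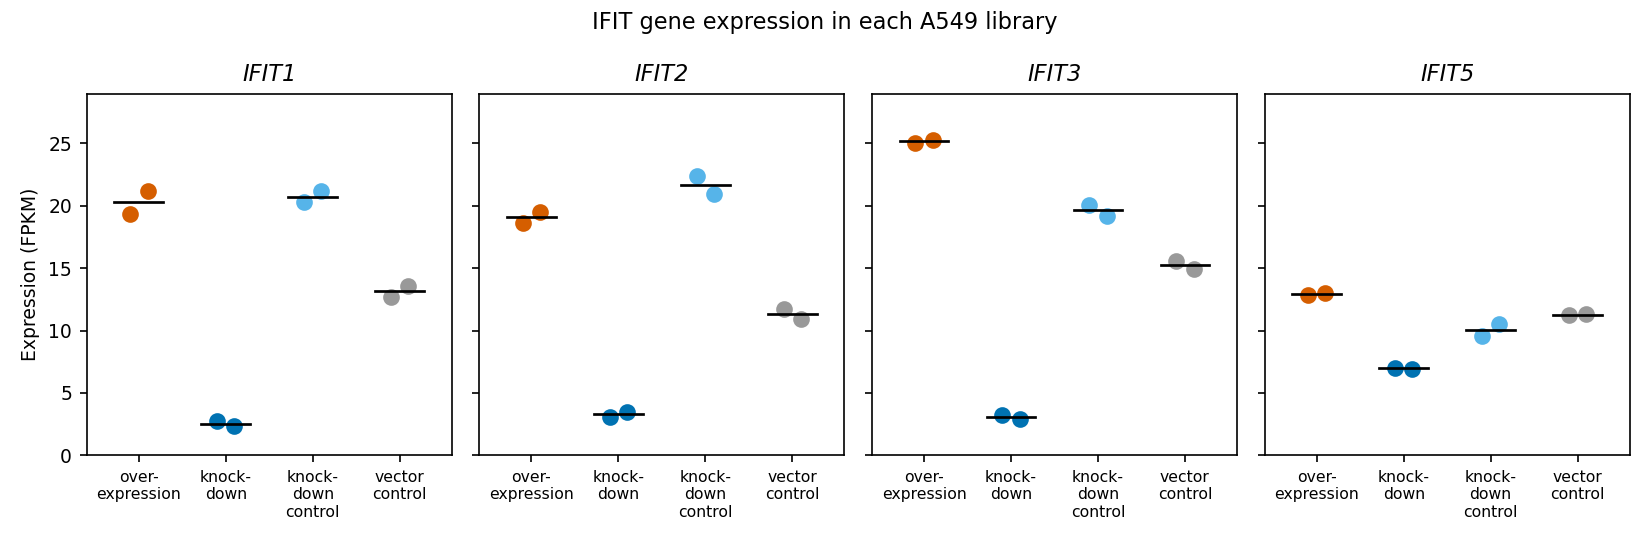
Expression in FPKM (y axis) of IFIT1, IFIT2, IFIT3 and IFIT5 in each library (points) of the 4 groups (x axis), with the mean of 2 libraries as a line. The knockdown libraries are lowest in all 4 panels, at 2.36 to 3.45 FPKM for IFIT1, IFIT2 and IFIT3 and at 6.96 and 6.99 FPKM for IFIT5.

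These are middling levels, backed by many reads. In the vector control IFIT1 ranked 4249 of 17056 genes by mean FPKM, IFIT2 4711, IFIT3 3825 and IFIT5 4724. With knockdown the ranks were 8864, 8301, 8477 and 6186. The fewest reads behind a value were the 270 of IFIT3 in knockdown replicate 2, a counting error of 6.1%, and the most were the 3597 of IFIT1 in overexpression replicate 2, an error of 1.7%. These figures cover counting only. The gene lengths that the deposited values imply are 4513 bases for IFIT1, 3393 for IFIT2, 2611 for IFIT3 and 4029 for IFIT5. IFIT1B, the remaining family gene of the cluster, had 1 read in overexpression replicate 2 and 0 in the other libraries, so few if any reads of the family were assigned to it. The sources used here do not say how reads that match several family members were treated. In bulk RNA, fewer cells with these transcripts and less transcript per cell cannot be told apart.

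With overexpression, IFIT1, IFIT2 and IFIT3 were higher than in the vector control and IFIT5 moved least. IFIT1 averaged 20.3 ± 1.3 FPKM with overexpression and 13.1 ± 0.60 in the vector control (SD, n = 2 each), a ratio of 1.54. The difference was 0.59 ± 0.07 (SE) on the log2(FPKM + 1) scale, which understates changes of low genes. Each SE comes from the limma fit, which pools the spread of all 4 groups and moderates it over genes. The ratio was 1.69 for IFIT2 (0.71 ± 0.07) and 1.65 for IFIT3 (0.69 ± 0.06), so the ratios of these 3 genes lay between 1.54 and 1.69. For IFIT5 it was 1.15 (0.18 ± 0.06). Over the 10648 genes tested, those with a mean of at least 1 FPKM, limma called 3 of the 4 members higher and left IFIT5 uncalled, at an adjusted p below 0.05. The background was 7 genes higher (0.0657%) and 0 lower (0%), with 738 genes at an unadjusted p below 0.05, and voom on recovered reads called 22 higher and 5 lower. The members were chosen on this contrast, so nothing is read from that count. Among all 10648 differences IFIT2 ranked 4 from the highest, IFIT3 7, IFIT1 12 and IFIT5 376. With no filter on low genes 0 of the members were called.

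With knockdown, all 4 members were lower than in the knockdown control, IFIT1, IFIT2 and IFIT3 by the wider margin. IFIT1 averaged 2.54 ± 0.26 FPKM with knockdown and 20.7 ± 0.66 in the knockdown control, 8.15 times as much in the control (-2.62 ± 0.07 on the log2 scale). The control level was 6.60 times the knockdown level for IFIT2 (-2.40 ± 0.07) and 6.43 times for IFIT3 (-2.35 ± 0.06). For IFIT5, at 6.98 ± 0.017 with knockdown and 10 ± 0.68 in the knockdown control, it was 1.43 times (-0.46 ± 0.06). limma called all 4 lower, where 10.9% of tested genes were called lower and 11.3% higher. This contrast too was used to choose the members, so nothing is read from that count. IFIT1 ranked 5 from the lowest of 10648 differences, IFIT2 10, IFIT3 11 and IFIT5 329. Of the calls over all genes, 1204 were higher and 1165 lower as deposited, 1745 and 884 with TPM scaling, and 1591 and 973 with median-of-ratios scaling.

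The control of the knockdown did not sit at the vector level, and here the members went different ways. Of the 4, limma called 3 higher and 1 lower in the knockdown control against the vector control, where 36.8% of tested genes were called higher and 31.8% lower. These libraries also entered the choice of members, and nothing is read from that count. IFIT2 was 1.91 times the vector level (0.88 ± 0.07), IFIT1 1.58 times (0.62 ± 0.07) and IFIT3 1.29 times (0.34 ± 0.06). These ranked 315, 916 and 2544 from the highest of 10648 differences, whereas IFIT5 lay on the other side, at 0.887 times the vector level (-0.16 ± 0.06). TPM scaling moved the median of all genes in this comparison to -0.15 from 0.04 and the calls to 2368 higher and 5094 lower, against 3918 and 3391 as deposited. Under it IFIT3 was at 0.14 and lost its call, and IFIT5 was at -0.36. The IFIT5 difference was -0.10 without knockdown control replicate 1 and -0.22 with median-of-ratios scaling, and its call was lost in 6 of 16 alternatives.

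Set against the vector control instead, the knockdown libraries were lower in all 4 members. The vector level was 5.16 times the knockdown level for IFIT1 (-2.0 ± 0.07) and 5 times for IFIT3 (-2.0 ± 0.06). It was 3.45 times for IFIT2 (-1.52 ± 0.07). IFIT3 and IFIT1 had the 2 lowest of all 10648 differences, and IFIT2 ranked 8 from the lowest. For IFIT5 the vector level was 1.62 times the knockdown level (-0.62 ± 0.06) and ranked 574. All 4 members were called lower, and the background was 28.8% lower and 34.1% higher (3632 higher and 3068 lower genes, or 2136 and 4569 with TPM scaling, which moved the median of all genes to -0.12). Nothing is read from that count either, since these libraries entered the choice of members, and by their labels knockdown and vector control cells were not given the same agent.

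**Figure D3:**
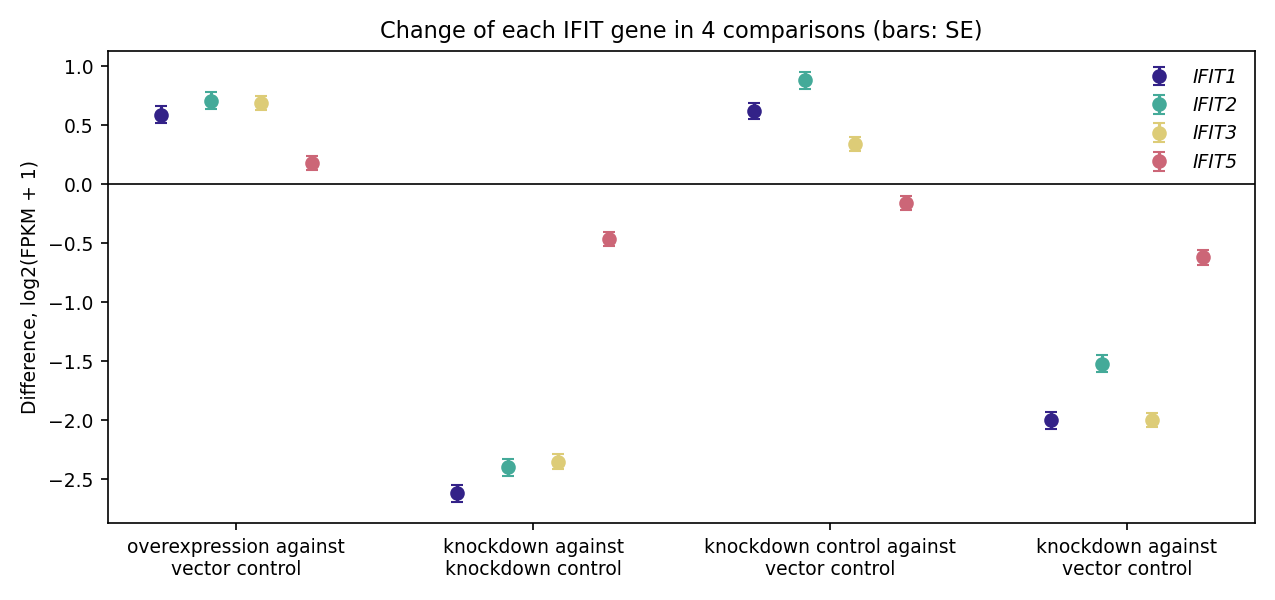
Difference in log2(FPKM + 1) of each IFIT gene (points, with SE bars, n = 2 libraries per group) in the 4 comparisons on the x axis. The SE comes from the limma fit, which pools the spread of all 4 groups and moderates it over genes. IFIT1, IFIT2 and IFIT3 lie between -2.62 and -2.35 with knockdown against its control, while IFIT5 lies at -0.46 there and falls below 0 in the knockdown control against the vector control.

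Because FPKM is per length, the make-up of the family can be compared between libraries. IFIT5 made up 17% and 16.4% of the summed IFIT FPKM with overexpression, 43.6% and 44.4% with knockdown, 13.2% and 14.6% in the knockdown control and 22% and 22.3% in the vector control. It was the smallest share in the overexpression and knockdown control libraries and the largest in the knockdown libraries. The sum itself was 76.0 and 78.9 FPKM with overexpression, 16.0 and 15.7 with knockdown, 72.3 and 71.9 in the knockdown control and 51.3 and 50.7 in the vector control.

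IFIT3 and IFIT1 did not keep a fixed ratio. IFIT3 per IFIT1 was 1.29 and 1.19 with overexpression, 1.17 and 1.23 with knockdown, 0.988 and 0.906 in the knockdown control and 1.23 and 1.10 in the vector control. The knockdown control libraries were the lowest and the other groups overlapped. IFIT2 per IFIT1 was 0.963 and 0.920 with overexpression, 1.14 and 1.46 with knockdown, 1.10 and 0.988 in the knockdown control and 0.921 and 0.806 in the vector control, lower in every vector library than in any knockdown or knockdown control library. With 2 libraries against 2, an exact two-sided permutation test cannot give a p below 0.333, so these ratios carry no test.

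**Figure D4:**
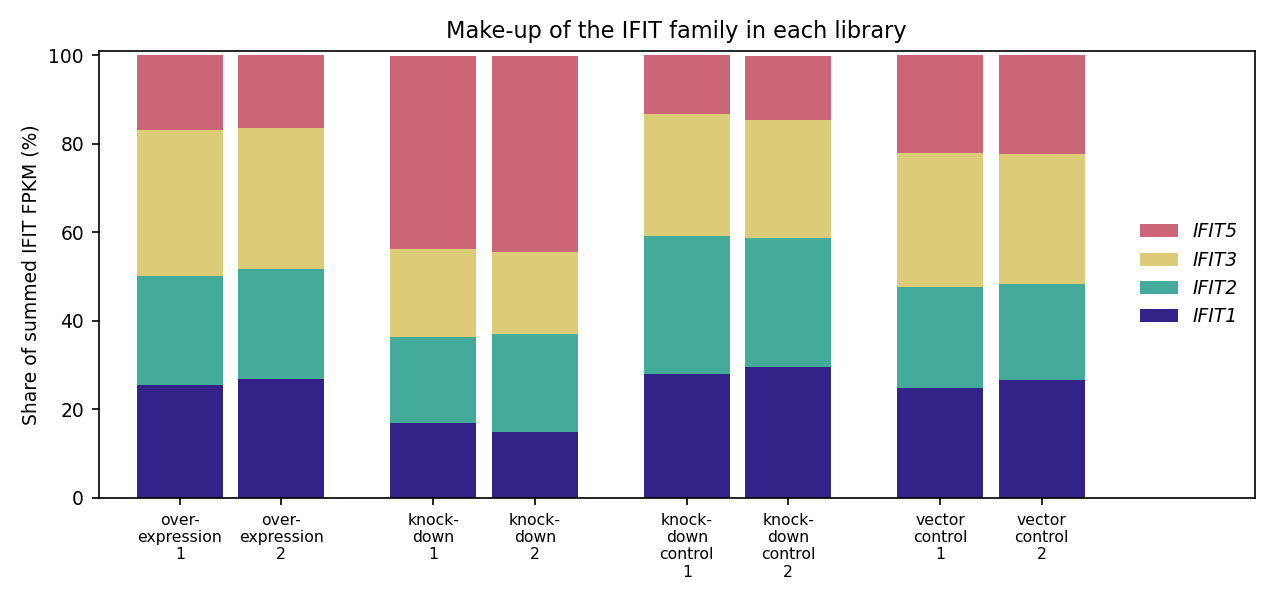
Share of each IFIT gene in the summed IFIT FPKM (y axis, percent) of each library (bars). IFIT5 takes 43.6% and 44.4% in the knockdown libraries and between 13.2% and 22.3% in the other libraries.

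Over the 8 libraries IFIT1 correlated with IFIT3 at r = 0.990, with IFIT2 at 0.988 and with IFIT5 at 0.885 on the log2 scale. IFIT5 correlated with IFIT3 at 0.933 and with IFIT2 at 0.828. These describe 4 groups of 2 libraries and are dominated by the low knockdown group. By the same measure, the 5 tested genes nearest to IFIT1 were TRIM14 (0.996), MX1 (0.993), PARP9 (0.991), OASL (0.990) and IFIH1 (0.987). Nearest to IFIT3 were OAS3 (0.997), MX1 (0.995), PARP9 (0.993), TRIM14 (0.990) and IFIH1 (0.988). Those of IFIT2 were IFI6 (0.995), OASL (0.991), SP110 (0.988), OAS1 (0.987) and RSAD2 (0.985). IFIT5 had another set, namely SP100 (0.990), DNAJA3 (0.985), HERC6 (0.985), ZBTB10 (0.983) and EIF2AK2 (0.981). In the knockdown control against the vector control these 5 were at -0.20 (SP100), -0.01 (DNAJA3), -0.25 (HERC6), -0.12 (ZBTB10) and -0.22 (EIF2AK2, which encodes the RNA-activated kinase PKR). IFI6, nearest to IFIT2, was at 1.10 there. They were picked for their likeness to the members over these libraries, so the values are a description.

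Genes for interferons, their signalling, RNA and DNA sensing, mRNA cap formation and translation initiation were followed as lists. Whether any of them acts on the IFIT genes here was not tested. The lists were chosen with earlier results of these data known. Their counts stand against the shares of all tested genes called. These were 11.3% higher and 10.9% lower with knockdown against the knockdown control, and 36.8% and 31.8% in the knockdown control against vector cells. With knockdown against vector cells they were 34.1% and 28.8%. With overexpression they were 0.0657% and 0%, so nothing is read from a list without a call there. Of 9 interferon genes 2 were tested. IFNB1, which encodes interferon beta, had 16 and 10 reads with overexpression, 7 and 5 with knockdown, 169 and 159 in the knockdown control and 8 and 8 in the vector control. IFNL1, an interferon lambda gene, had 53 and 46, 3 and 1, 156 and 160, and 11 and 27 reads in the same order of groups. Both were highest in the knockdown control libraries and next highest with overexpression, where IFNB1 had few reads. Both passed the filter on low values through the knockdown control, where IFNB1 averaged 5.4 FPKM and IFNL1 5.63. In the other groups IFNB1 averaged 0.199 to 0.422 FPKM and IFNL1 0.0718 to 1.74. Their differences from the knockdown control are therefore given as descriptions, without p-values. In the knockdown control IFNB1 and IFNL1 were at 2.33 ± 0.11 and 2.0 ± 0.13 against vector cells. With knockdown they were at -2.42 ± 0.11 and -2.63 ± 0.13 against the knockdown control. Against the vector control, IFNB1 with knockdown was at -0.08 ± 0.11 (limma adjusted p = 0.507) and IFNL1 fell (-0.63 ± 0.13, limma adjusted p = 0.00139). With overexpression neither was called, and IFNB1 was at 0.16 ± 0.11 and IFNL1 at 0.72 ± 0.13 (limma adjusted p = 0.86 and 0.124). Without vector control replicate 2 the IFNL1 call was made (limma adjusted p = 0.0142, against 0.124 to 0.455 with all libraries or another left out). The comparisons share libraries, here and in the lists that follow.

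Of 9 genes for interferon receptors and ISGF3 signalling 8 were tested. With knockdown against the knockdown control 3 fell and 1 rose, with a median of -0.06 against 0.02 over all genes. Among those that fell were IRF9 (-1.49 ± 0.07) and STAT2 (-0.46 ± 0.08), with limma adjusted p-values of 3.79e-08 and 0.00176. The 1 call higher, of the receptor subunit gene IL10RB (0.19 ± 0.06, limma adjusted p = 0.0446), was lost in 10 of 16 alternatives, voom among them. IFNAR1 and IFNAR2, the receptor of type I interferon, were not called (0.12 ± 0.06 and -0.10 ± 0.07). In the knockdown control against the vector control 3 were called higher and 3 lower, with a median of 0.11 against 0.04, and 1 higher and 2 lower without vector control replicate 2. IRF9 was higher (0.72 ± 0.07, limma adjusted p = 1.74e-06), and STAT2 was not called (0.14 ± 0.08, limma adjusted p = 0.134). Knockdown against the vector control called 4 lower and 1 higher (median -0.20 against 0.03), with IRF9 at -0.77 ± 0.07 and STAT2 at -0.32 ± 0.08. With overexpression 0 of 8 were called by limma and 2 by voom on recovered reads, with a median of 0.06 against 0.00 over all genes, IRF9 at 0.32 ± 0.07 and STAT2 at 0.10 ± 0.08.

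Of 12 genes for RNA and DNA sensing 9 were tested, and 5 (55.6%) fell and 1 (11.1%) rose with knockdown against the knockdown control (median -0.25 against 0.02). DDX58, which encodes RIG-I, was at -1.05 ± 0.08 and IRF7, an interferon-induced transcription factor, at -2.34 ± 0.15. Their limma adjusted p-values were 3.67e-06 and 7.85e-07. IFIH1, which encodes MDA5, was at -1.60 ± 0.10, a description, since it was also among the genes nearest to IFIT1 and IFIT3. The 5 that fell include IFIH1 and EIF2AK2, which was among the genes nearest to IFIT5. IRF3 fell less (-0.25 ± 0.05, limma adjusted p = 0.00693), and MAVS, the adaptor below both sensors, was not called (0.09 ± 0.06). In the knockdown control against the vector control 5 (55.6%) were called higher and 2 (22.2%) lower (median 0.22), among them IRF7 (1.03 ± 0.15, limma adjusted p = 7.78e-05), and with TPM scaling 2 and 2. With knockdown against the vector control 4 (44.4%) were higher and 5 (55.6%) lower (median -0.46). With overexpression 0 of 9 were called by limma and 1 by voom, with a median of 0.05, DDX58 at 0.41 ± 0.08 and IFIH1 at 0.35 ± 0.10. Of 4 negative regulators, USP18 (-0.71 ± 0.08) and SOCS3 (-0.53 ± 0.10) fell with knockdown against the knockdown control. PIAS1 rose (0.23 ± 0.07), with limma adjusted p-values of 0.000123, 0.00247 and 0.0287 for USP18, SOCS3 and PIAS1. SOCS1 was at -1.36 ± 0.18. It passed the filter on low values through the knockdown control, at 3 FPKM there and 0.23 to 0.551 in the other groups. Its differences from the knockdown control are therefore a description. The PIAS1 call was lost in 5 of 16 alternatives, and those include each one that left out a knockdown or knockdown control library. In the knockdown control against the vector control, which shares the knockdown control libraries, USP18, SOCS1, SOCS3 and PIAS1 were at 0.41, 1.68, 0.58 and -0.47. Of these 4, USP18 and SOCS3 were called higher there and PIAS1 lower, and SOCS1 is again given as a description only. Against the vector control, knockdown called 2 of them lower and 0 higher, with 0 lower without knockdown replicate 1 and 1 without vector control replicate 2, and with overexpression 0 were called.

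Of 6 genes of mRNA cap formation, 1 fell with knockdown against the knockdown control (median -0.01). It was CMTR1, which encodes the methyltransferase of the first cap ribose (-0.28 ± 0.07, limma adjusted p = 0.0189), a call lost with no filter on low genes and without knockdown replicate 1, knockdown replicate 2 or knockdown control replicate 1, while CMTR2 (0.03 ± 0.08) and RNMT (-0.06 ± 0.06) were not called. Of 13 subunits of eIF3, the initiation factor that IFIT1 and IFIT2 contact, 1 fell, EIF3K (-0.13 ± 0.03, limma adjusted p = 0.0145, named because it was the one call), and it lost its call without knockdown replicate 2 and without either knockdown control replicate. In other fits 3 subunits rose with TPM scaling and 2 with voom. EIF3E was at 0.09 ± 0.04 and EIF3C, which has a near-identical copy, at 0.31 ± 0.34. Against the vector control, the knockdown control had 3 cap genes lower (50%) and 1 higher (16.7%), and 6 eIF3 subunits were lower (46.2%) and 2 higher (15.4%), beside 31.8% and 36.8% of all genes. Knockdown against the vector control gave 3 lower and 1 higher for the cap genes and 7 lower (53.8%) and 1 higher (7.69%) for eIF3, beside 28.8% and 34.1%. With overexpression neither list had a call, and 1 eIF3 subunit was called higher without overexpression replicate 1.

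Of 16 neighbours of the cluster on chromosome 10, 5 were tested, and 0 were called with overexpression. Over all tested genes 0.0657% were called higher there and 0% lower. LIPA, which encodes lysosomal acid lipase on the minus strand, spans most of the cluster in RefSeq (89213572 to 89414679). In GENCODE release 29 it shares 65 exonic bases with IFIT2 and 0 with IFIT1, IFIT3 or IFIT5. In RefSeq its span ends past the start of IFIT5 (89414568), and exonic bases shared in RefSeq were not counted. The sources used here do not give the annotation or say whether counting used strand. Reads in shared bases therefore cannot be assigned to a strand. LIPA was at 0.01 ± 0.06 with overexpression (limma adjusted p = 0.994) and at 0.06 ± 0.06 with knockdown against the knockdown control (limma adjusted p = 0.453). Against vector control cells LIPA was higher in the knockdown control (0.41 ± 0.06, limma adjusted p = 3.6e-05). KIF20B, a mitotic kinesin gene 280.6 kb past IFIT5, is the nearest tested gene on that side. It rose with knockdown against the knockdown control (0.39 ± 0.06, limma adjusted p = 0.0013). That was the 1 call of 5 there (20%), beside 11.3% of all tested genes called higher and 10.9% lower. Against vector control cells KIF20B was lower in the knockdown control (-1.62 ± 0.06, limma adjusted p = 2.45e-09). Against the vector control the 5 neighbours had 2 calls higher (40%) and 1 lower (20%) in the knockdown control, beside 36.8% and 31.8% of all tested genes. With knockdown they had 1 of each (20%), beside 34.1% higher and 28.8% lower. FAS, the death receptor gene on the other side, was not called in any of the 4 comparisons (-0.05, 0.01, -0.10 and -0.09). CH25H, between FAS and LIPA, did not pass the filter on low values. It had 7 and 16 reads with overexpression and 6 and 1 with knockdown. In the knockdown control it had 46 and 52, and in the vector control 4 and 5. SLC16A12 and PANK1, also untested, differed from it. SLC16A12 was highest with knockdown, and PANK1 averaged 1.2 FPKM with knockdown and 1.22 in the knockdown control.

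The motif of the IFIT promoters was then followed over all genes. Of 8702 tested genes with a promoter window, 322 held an ISRE match, and 319 without the IFIT genes. Of these 319, 77 (24.1%) fell and 28 (8.78%) rose with knockdown against the knockdown control, against 10.1% and 11.6% of the 8380 tested genes whose windows held none. Their medians were -0.03 and 0.02. Among the 319, in the knockdown control against the vector control, 37.0% were higher and 34.5% lower, against 36.4% and 32.5% of the genes without a match. Knockdown against the vector control called 40.1% of them lower and 24.1% higher, against 29.1% and 34.4%. With overexpression 3 of the 319 rose, against 1 of 8380.

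Of 35 tested genes with 2 or more matches, IFIT1, IFIT3 and IFIT5 included, 21 (60.0%) fell and 1 rose with knockdown against the knockdown control, with a median of -0.43. Without the IFIT genes, which were chosen on this contrast, 18 of 32 (56.2%) fell and 1 (3.12%) rose, with a median of -0.36. The 18, and the 17 called higher in the knockdown control below, include IFNL1, which passed the filter on low values through that control. Those that fell included ISG15, a ubiquitin-like modifier gene (-2.56), IFI6 (-2.61), IFIH1 (-1.60) and OAS3 (-0.90). The 1 that rose was SMARCA5, a chromatin remodeller gene (0.23, limma adjusted p = 0.0274). Others were not called: ATF5, with 3, was at -0.14 (limma adjusted p = 0.0812) and C2CD2, also with 3, at -0.00 (limma adjusted p = 0.987). With overexpression 3 of the 32 rose, IFI27 (0.92), IFI6 (0.73) and ISG15 (0.48), with a median of 0.09. Of the 32, 17 (53.1%) were higher and 7 (21.9%) lower in the knockdown control than in vector cells, beside 36.4% and 32.5% of the genes without a match, with a median of 0.21. Knockdown against the vector control called 20 (62.5%) lower and 8 (25%) higher, beside 29.1% and 34.4%, with a median of -0.36. With knockdown against the knockdown control IFIT5, with 3 matches, lay near the median of the 35 genes, while IFIT1 and IFIT3, with 2 at a start, were among the 5 lowest. The number of matches was not tested against the size of change, and genes named here were chosen after their values were seen.

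**Figure D5:**
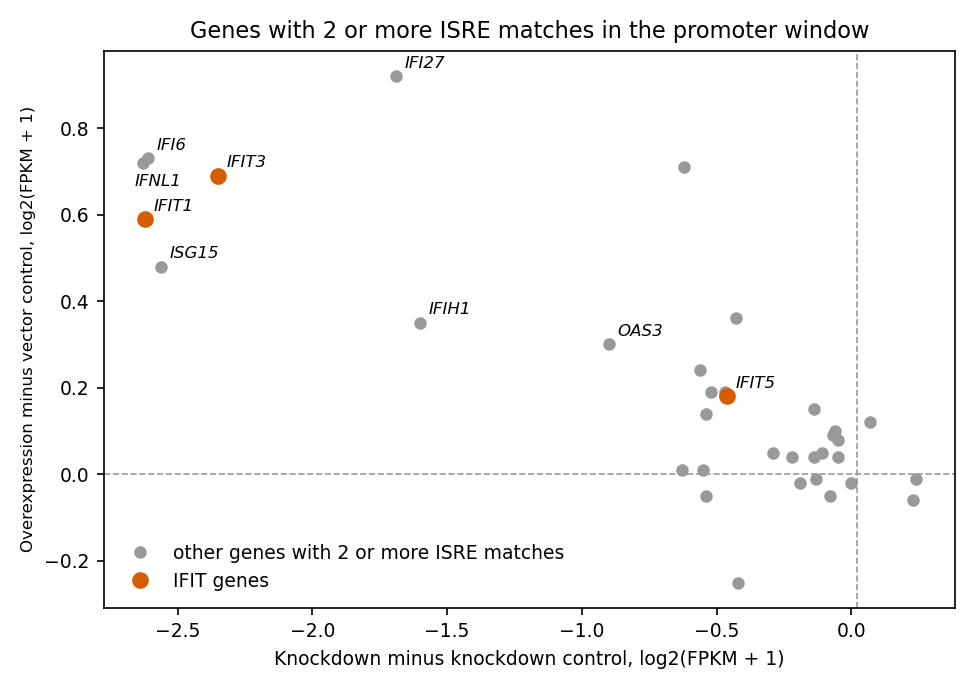
The 35 tested genes with 2 or more ISRE matches in the promoter window, by their difference in log2(FPKM + 1) with knockdown against the knockdown control (x axis) and with overexpression against the vector control (y axis), which share no libraries. IFIT1 (-2.62 and 0.59) and IFIT3 (-2.35 and 0.69) lie at the upper left with IFI6 and ISG15, and IFIT5 (-0.46 and 0.18) lies nearer the dashed lines, which mark the medians of all genes.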

How the data were processed

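RNA-seq of A549 cells gave 1 library per sample, 8 in all, from total RNA. The authors deposited FPKM values for 17056 genes, 1 column per library. Per the submitters' processing notes the tools were R 3.2.0, HTSeq, featureCounts and HISAT2 with the build hg38 (GRCh38). The sources used here do not give their roles, the annotation, filters or strand setting.

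The columns were mapped to groups by the labels. Values were transformed as log2(FPKM + 1), and genes averaging 1 FPKM or more (10648) were tested by limma 3.58.1 under R 4.3.3, with empirical Bayes moderation and a mean-variance trend, two-sided. All 4 groups entered the fit (4 residual degrees of freedom), and calls were made below an adjusted p of 0.05 (Benjamini-Hochberg, over all genes tested). In each library the values were whole multiples of what 1 read is worth. Whole reads (within 0.02 reads) were recovered for all 17056 genes, which gave depth, and for 99.7% of the 13444 genes above 0 in every library the implied gene length was also whole (within 0.05 bases). Library totals were 33741261 to 37597624 reads, of which the table holds 99.75% to 99.77%. The chi-square per degree of freedom between replicates was 5.27 to 6.25, above sampling noise in every group. The fit and the recovery were tested on simulated data. Motifs were searched in RefSeq promoter windows, and positions came from RefSeq and GENCODE release 29.

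Alternatives were voom on the recovered reads, a pseudocount of 0.1, a mean of 5 FPKM or no filter, TPM or median-of-ratios scaling, a replicate block, fitting the compared groups alone and leaving out each library. The members and lists were chosen with earlier results of these data known. Named genes were the 4 members, list members picked for their role, the 5 genes nearest in pattern to each member, tested genes flanking the cluster, and list members among fewer than 5 calls of their list. A gene that these rules name is not reported here.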

Additional observations from a re-analysis of the deposited data

How the results depend on the processing

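Over 16 alternatives, the 4 members in 4 comparisons gave 256 values. None changed sign, 244 stayed on the same side of the threshold and 12 lost their call. The members were chosen on these same libraries, so most signs and calls were apt to hold. Nothing is read from that, nor from the IFIT calls given below. In overexpression against the vector control, the number of genes called was 7 as reported, 0 with no filter on low genes (0 of the IFIT genes), 11 with a minimum mean of 5 FPKM, 11 with TPM scaling and 27 with voom. It was between 6 and 12 when a library was left out (12 without vector control replicate 2), and the IFIT count was then 2 or 3. IFIT1 lost its call there without overexpression replicate 2 (0.53) and without vector control replicate 1 (0.55). In knockdown against the knockdown control the genes called, 2369 as reported, were between 1176 and 2315 with a library left out, the lowest without knockdown replicate 2, then 1323 without knockdown control replicate 2 and 1494 without knockdown replicate 1, and all 4 IFIT genes were called each time. Such a fit leaves a group with 1 library, assumed to vary like the others.

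In the knockdown control against the vector control, IFIT5 lost its call in the fit to the compared groups and without knockdown control replicate 1, either vector control library or either overexpression library, with differences between -0.36 and -0.10 over the alternatives. With a replicate block the counts were 8, 2315, 7320 and 6707 in the order of the report and no IFIT call changed. The IL10RB call was lost. Differences between the replicates of a group, taken over genes, correlated between -0.06 and 0.06 from group to group. That is weak over genes as a whole, and it cannot exclude a shared batch that moved some genes. Of 512 list counts, 488 stayed within 1.5 times; 10 genes with an ISRE match rose with overexpression by voom, and 70 were called without knockdown replicate 2 in the knockdown comparison. The cause of these shifts was not tested. With 2 libraries per group, only changes well above the replicate spread could be called.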
